A study of Mus musculus with 4 samples.

Results

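The matrix metalloproteinases (MMPs) and their tissue inhibitors (TIMPs) were followed in mouse colonic organoid cultures. The genes were taken by symbol from the deposited gene table: Mmp2, Mmp3, Mmp7, Mmp9, Mmp10, Mmp13, Mmp14, Timp1, Timp2 and Timp3, which are 10 of the 30360 genes measured. All 10 were present in the matrix. RNA was counted in single cells of 4 cultures, each made into 1 library. The cultures came from the distal colon of wildtype mice or of Tnfr2-/- mice, which carry a deletion of Tnfrsf1b, the gene of tumor necrosis factor (TNF) receptor 2, throughout the body. Donor age was 16 weeks in all groups per the labels. One culture of each genotype received TNF at 20 ng/ml between day 1 and day 6 following passage 5, and the other was left untreated with vehicle. All 4 were harvested on day 7. Each group was 1 culture, so no difference between groups below has a replicate or a test, and a difference between libraries describes those libraries.

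MMPs are zinc-dependent endopeptidases that cut collagens, laminins, proteoglycans and other proteins of the extracellular matrix, and most are secreted as inactive proenzymes. TIMPs bind the active enzymes and block them. In the intestine, fibroblasts secrete stromelysins, collagenases and gelatinases during inflammation and wound repair, whereas matrilysin is known as an epithelial MMP.

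On the GRCm38 build (GENCODE M21), Mmp13, Mmp3, Mmp10 and Mmp7 lie in 1 gene cluster on the plus strand of chr9:7272514-7699585, a stretch of 427072 bases that holds 13 annotated genes, 10 of them Mmp genes. Mmp2 is on chromosome 8, Mmp9 on chromosome 2, Mmp14 on chromosome 14, Timp3 on chromosome 10, Timp2 on chromosome 11 and Timp1 on the X chromosome. RefSeq (GRCm38.p6) gave a promoter window for 8 of the 10 members, and the 250 bases upstream of each annotated start were searched on both strands. The promoters of the 4 clustered members are shown because they share the AP-1 and TATA motifs given below. Also, 3 of them were mesenchymal RNAs that were higher with TNF while Mmp7 was epithelial. Each line gives the 120 bases that end at the base before the annotated start, 5′ to 3′, with the match to the AP-1 motif TGANTCA in capitals. The windows are chr9:7445702-7445821 (Mmp3), chr9:7502222-7502341 (Mmp10), chr9:7272394-7272513 (Mmp13) and chr9:7691970-7692089 (the first of 2 starts of Mmp7).
Mmp3: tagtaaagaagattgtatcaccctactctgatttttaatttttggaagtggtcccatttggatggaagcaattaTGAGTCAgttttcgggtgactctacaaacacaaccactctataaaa
Mmp10: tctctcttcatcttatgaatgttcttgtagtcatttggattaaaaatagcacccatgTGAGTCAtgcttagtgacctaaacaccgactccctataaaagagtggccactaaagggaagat
Mmp13: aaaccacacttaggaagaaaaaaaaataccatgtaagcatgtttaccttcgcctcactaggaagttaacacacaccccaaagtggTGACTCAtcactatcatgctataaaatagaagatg
Mmp7: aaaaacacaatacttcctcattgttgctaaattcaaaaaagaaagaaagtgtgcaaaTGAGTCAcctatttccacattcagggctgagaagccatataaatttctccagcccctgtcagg

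Counted backward from the start, the match lay at bases -46 to -40 in Mmp3, -63 to -57 in Mmp10 and in Mmp7, and -35 to -29 in Mmp13. The motif TGANTCA was present in 6.75% of all 32851 RefSeq promoter windows of this length. It was not in the windows of Mmp14, Timp1, Timp2 or Timp3, nor in that of the second Mmp7 start. The TATA motif TATAAA occurred in 12.4% of all windows and in the same 4 windows shown. These are matches of letters only, and binding was not measured.

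Values below are listed in the order untreated wildtype, TNF-treated wildtype, untreated Tnfr2-/-, TNF-treated Tnfr2-/-, and cell numbers were 2589, 1469, 1117 and 980. The authors' annotation gave 7 epithelial and 4 mesenchymal classes, and 35 cells had no class. Mesenchymal cells numbered 1430, 306, 90 and 122, with a median of 22643 to 48633 unique molecular identifiers (UMIs, each 1 counted RNA molecule) per cell, and epithelial cells 1128, 1163, 1023 and 858, with a median of 30306 to 41057. Mesenchymal and epithelial markers separated the compartments, though not fully. The 9 mesenchymal markers summed to between 9233 and 15790 CPM (UMIs of a gene per 1000000 UMIs of the cells summed) in the mesenchyme and to between 5.29 and 23.2 CPM in the epithelium. The 7 epithelial markers summed to between 11566 and 14415 CPM in the epithelium. In the mesenchyme they summed to between 141 and 814 CPM, the most in the Tnfr2-/- TNF library. Of 9 blood cell markers, 5, 5, 2 and 3 were above 0 in the mesenchyme, at a summed level of 0.919 to 5.87 CPM, with Ptprc, Cd3e and Itgam at 0 in all 4 libraries. In the epithelium the blood markers summed to 62.0 to 287 CPM, nearly all of it from Ly6g (58.0 to 286 CPM). Transcripts of the deleted gene Tnfrsf1b were present at 9.76, 14.0, 2.05 and 7.59 CPM over all cells, so the Tnfr2-/- libraries were lower within each treatment but not at 0. Xist RNA was counted at 616 and 649 CPM in the wildtype libraries and at 0.169 and 0.0898 CPM in the Tnfr2-/- libraries, so sex and genotype cannot be told apart. Across libraries, 3 cell barcodes were shared. Mesenchymal cells with UMIs of at least 3 of Epcam, Krt8, Krt18, Krt19 and Cdh1 made up 9.79%, 27.8%, 6.67% and 32.0%, and no count of members below differed when these cells were left out.

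The make-up of the mesenchyme bears on every mesenchymal sum. The untreated wildtype mesenchyme was mostly the class Mesenchyme-Ifitm1 (892 of 1430 cells), with 393 Mesenchyme-generic, 111 Mesenchyme-proliferative and 34 Mesenchyme-Ptges cells. Both TNF-treated libraries consisted almost wholly of Mesenchyme-Ptges cells (304 of 306 and 122 of 122). The untreated Tnfr2-/- mesenchyme held 51 Mesenchyme-generic and 37 Mesenchyme-Ptges cells. Mesenchyme-Ptges is therefore the one mesenchymal class with at least 20 cells in all 4 libraries, and values in it are given beside those of the whole mesenchyme. Its 34 untreated wildtype cells were shallow, with a median of 5755 UMIs.

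Most members were mesenchymal RNAs in these cultures. By a rule of at least 2-fold on log2(CPM + 1) in each of the 4 libraries, with 20 CPM reached in 1 of the compartments, 7 members (Mmp2, Mmp3, Mmp10, Mmp13, Mmp14, Timp1 and Timp2) were higher in the mesenchyme than in the epithelium and 1, Mmp7, was lower. Mmp9 and Timp3 did not reach 20 CPM in every library. Classes were made by clustering the same cells, so this contrast is a description. The sums of UMIs, the exact Poisson intervals and the counts of 3 UMIs used as a limit where a gene had none cover counting error only.

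**Figure D1:**
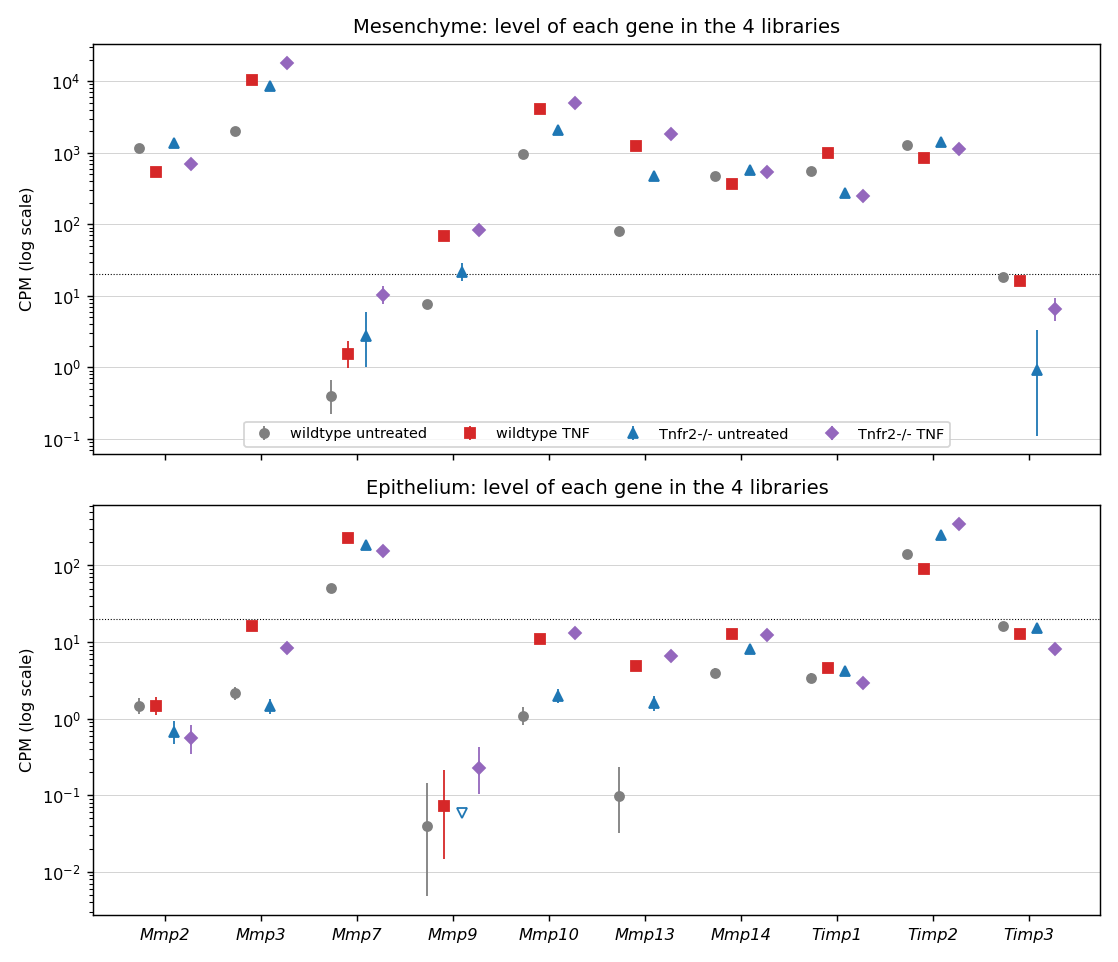
Level of the 10 genes in CPM (vertical, log scale) in the mesenchyme (top) and the epithelium (bottom) of the 4 libraries, with exact 95% Poisson intervals, the 20 CPM minimum as a dotted line and an open triangle at the level of 3 UMIs where none was counted. Mmp3, Mmp10 and Mmp13 reached 18027, 4956 and 1818 CPM in the Tnfr2-/- TNF mesenchyme, and Mmp7 stood at 50.8 to 232 CPM in the epithelium.

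Both stromelysins were higher with TNF. Mmp3 (stromelysin-1), which cleaves proteoglycans, laminin and fibronectin and can activate other pro-MMPs, stood at 2018, 10239, 8626 and 18027 CPM in the mesenchyme. The untreated wildtype library was the lowest and the Tnfr2-/- TNF library the highest, where Mmp3 alone made up 86014 of 4771439 mesenchymal UMIs. The level with TNF was higher by 2.34 (log2) in the wildtype pair and by 1.06 in the Tnfr2-/- pair. In Mesenchyme-Ptges cells Mmp3 stood at 4869, 10266, 9547 and 18027 CPM, and the differences with TNF were 1.08 and 0.92.

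Mmp10 (stromelysin-2), a close relative of Mmp3, had the same order of libraries. It was counted at 963, 4069, 2089 and 4956 CPM in the mesenchyme, a difference with TNF of 2.08 in wildtype and 1.25 in Tnfr2-/-. Within Mesenchyme-Ptges it was at 1874, 4091, 3262 and 4956 CPM, with differences of 1.13 and 0.60.

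Mmp13, the main interstitial collagenase of rodents, had the widest span. Its mesenchymal level was 79.8, 1254, 471 and 1818 CPM, so that the untreated wildtype library was far below the other 3. The difference with TNF was 3.96 in the wildtype pair (counting interval of the ratio 3.92 to 4.03) and 1.95 in the Tnfr2-/- pair (1.86 to 2.04). In Mesenchyme-Ptges cells the levels were 84.7, 1262, 1009 and 1818 CPM, with differences of 3.88 and 0.85.

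Of the gelatinases, which cut denatured collagen and basement membrane collagen, Mmp9 was rare. It was counted at 7.73, 68.5, 21.6 and 84.0 CPM in the mesenchyme, from 269, 1007, 47 and 401 UMIs. Both TNF libraries were above both untreated libraries. The differences with TNF were 2.99 and 1.91, and in Mesenchyme-Ptges cells, at 17.5, 68.7, 15.6 and 84.0 CPM, they were 1.91 and 2.36, with 6 and 13 UMIs in the untreated wildtype and Tnfr2-/- cells. In the epithelium Mmp9 had 2, 3, 0 and 9 UMIs in all. For the 0, the limit of 3 UMIs was 0.0592 CPM and the exact Poisson limit 0.0728 CPM.

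Mmp2, the gelatinase that resting fibroblasts make, was lower with TNF. It stood at 1166, 534, 1354 and 693 CPM in the mesenchyme, so both TNF libraries were below both untreated libraries. The differences with TNF were -1.12 and -0.96, and the second of these put Mmp2 just outside the 2-fold rule. Within Mesenchyme-Ptges they were -1.31 and -0.88. Mmp14, the membrane-anchored MMP that activates pro-Mmp2 on the cell surface, stood at 473, 366, 570 and 537 CPM, with differences of -0.37 and -0.09, and in Mesenchyme-Ptges at 604, 364, 608 and 537 CPM, with differences of -0.73 and -0.18.

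Counted over the 8 members that reached 20 CPM in the mesenchyme, 4 (Mmp3, Mmp9, Mmp10 and Mmp13) were at least 2-fold higher with TNF in both genotypes, where 2.77% of the 5956 genes that reached that minimum met the same rule. None of the 8 was lower in both, where 3.51% of all genes were. The median over the 8 members was 1.44 in the wildtype pair and 0.49 in the Tnfr2-/- pair, beside 0.01 and -0.12 over all genes. Within Mesenchyme-Ptges alone 1 member, Mmp9, met the rule, where 1.67% of 5809 genes did. Mmp3 (0.92), Mmp10 (0.60) and Mmp13 (0.85) then missed it in the Tnfr2-/- pair, whose 37 untreated cells already carried 9547, 3262 and 1009 CPM. Classes other than Mesenchyme-Ptges made up most untreated mesenchymal cells and almost no TNF-treated ones, so class make-up and level per class both enter the whole-mesenchyme values.

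**Figure D2:**
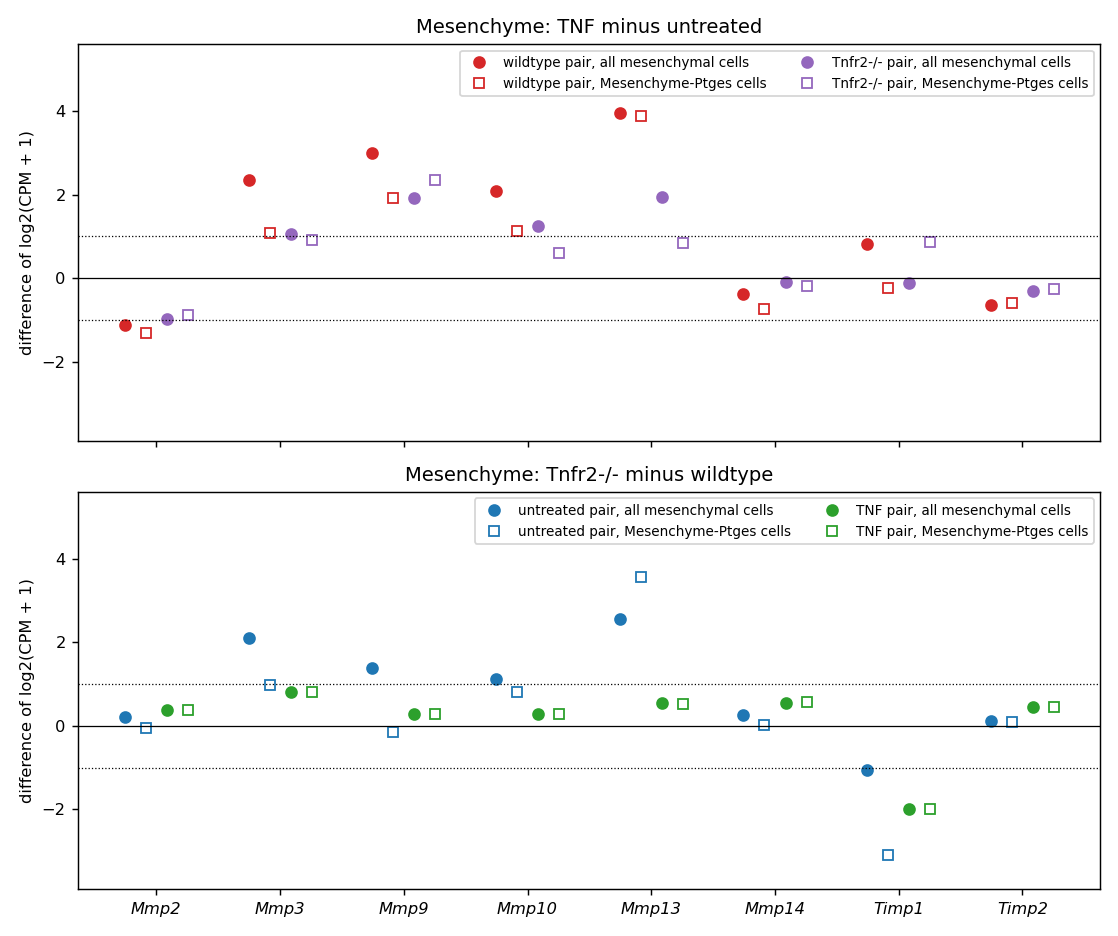
Difference of log2(CPM + 1) (vertical) for the 8 members that reached 20 CPM in the mesenchyme, as TNF minus untreated (top) and Tnfr2-/- minus wildtype (bottom), for all mesenchymal cells (filled circles) and Mesenchyme-Ptges cells only (open squares). The dotted lines mark 2-fold. Mmp13 in the wildtype pair lay at 3.96 and 3.88, while in the Tnfr2-/- pair it moved from 1.95 to 0.85 when the other classes were left out.

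Between genotypes, Timp1 was the one member that met the rule. Timp1 inhibits most secreted MMPs, binds pro-Mmp9 and is a gene that fibroblasts make when activated. It stood at 562, 985, 270 and 249 CPM in the mesenchyme, with both Tnfr2-/- libraries below both wildtype libraries. The difference Tnfr2-/- minus wildtype was -1.05 (counting interval -1.18 to -0.94) untreated and -1.98 (-2.07 to -1.90) with TNF. Thus 1 of the 8 members that reached 20 CPM was lower, where 1.4% of 5935 genes were, and 0 were higher, where 1.67% of all genes were. With median-of-ratios scaling the untreated difference was -0.98 and the count became 0.

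Timp1 was also lower in each class that could be compared. In Mesenchyme-Ptges cells it stood at 1171, 987, 137 and 249 CPM, a difference of -3.09 untreated and -1.98 with TNF, and it was the 1 of 7 members reaching the minimum that was lower there, where 2.04% of 5943 genes were. Its TNF difference was 0.81 in wildtype and -0.12 in Tnfr2-/- over the whole mesenchyme but -0.25 and 0.86 in Mesenchyme-Ptges. In Mesenchyme-generic cells, compared without TNF, it was at 598 CPM in 393 wildtype cells and 342 CPM in 51 Tnfr2-/- cells, a difference of -0.81. After every cell was thinned to 5000 UMIs, 84.4%, 93.6%, 52.3% and 58.3% of mesenchymal cells held a Timp1 UMI, against 1.38% to 2.52% of epithelial cells, and unthinned the mesenchymal shares were 98.4%, 99.3%, 86.7% and 91.0%. Timp1 is X-linked, and the median difference of the 169 X-linked genes that reached the minimum in the mesenchyme was -0.12 untreated and -0.29 with TNF, beside -0.07 and -0.20 over all genes. The part of sex in the Timp1 difference cannot be told apart from genotype.

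The 4 MMPs that were higher with TNF differed more between genotypes without TNF than with it. Untreated, Mmp3 (2.10), Mmp9 (1.37), Mmp10 (1.12) and Mmp13 (2.55) were all more than 2-fold higher in the Tnfr2-/- mesenchyme than in the wildtype mesenchyme. With TNF, the same differences were 0.82, 0.29, 0.28 and 0.54. Both comparisons are built from the same 4 values per gene, so they are not independent of the TNF differences above. In Mesenchyme-Ptges cells the untreated differences were 0.97 for Mmp3, -0.16 for Mmp9, 0.80 for Mmp10 and 3.56 for Mmp13, the last from 29 UMIs in wildtype. In Mesenchyme-generic cells, which gave an untreated pair only, they were 1.70, 1.69, 0.68 and 0.29. Mmp3 and Mmp10 were thus higher in untreated Tnfr2-/- cells of both classes, whereas the Mmp13 difference was over 2-fold in Mesenchyme-Ptges alone and the Mmp9 difference in Mesenchyme-generic alone, a contrast that was not tested.

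Timp2, which inhibits MMPs and with Mmp14 takes part in the activation of pro-Mmp2, was abundant and differed little in the mesenchyme. It stood at 1300, 836, 1400 and 1139 CPM, with a TNF difference of -0.64 and -0.30 and a genotype difference of 0.11 and 0.45. In Mesenchyme-Ptges the TNF differences were -0.60 and -0.25 and the genotype differences 0.095 and 0.44. Timp3, an inhibitor that binds to the matrix, was under 20 CPM in the mesenchyme of every library, at 18.1, 16.0, 0.919 and 6.50 CPM, and stood at 20.4, 16.1, 2.40 and 6.50 CPM in Mesenchyme-Ptges. Both untreated Tnfr2-/- values rest on 2 UMIs. Both Tnfr2-/- values were below both wildtype values, at levels too low for the rule.

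Summed over the mesenchyme, the 7 MMPs accounted for 0.471%, 1.65%, 1.31% and 2.61% of all UMIs. The 3 TIMPs together gave 1880, 1837, 1671 and 1394 CPM. The ratio of MMP to TIMP UMIs was thus 2.50, 9.0, 7.86 and 18.7, and in Mesenchyme-Ptges cells it was 3.56, 9.01, 10.5 and 18.7. It was lowest in the untreated wildtype library and highest in the Tnfr2-/- TNF library on both counts. These are ratios of RNA molecules counted at the 3′ end and say nothing of enzyme activity.

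Single cells differed in how widely they carried each MMP. After thinning to 5000 UMIs, Mmp13 was found in 15.8% of mesenchymal cells (95% Clopper-Pearson interval 13.9 to 17.8), 57.0% (51.2 to 62.7), 34.9% (24.9 to 45.9) and 82.5% (74.5 to 88.8). Unthinned, the shares were 29.2%, 76.5%, 51.1% and 91.8%. In epithelial cells thinned shares were 0% (0 of 1085 cells, where 3 cells would be 0.276%), 0.802%, 0.101% and 2.13%. Within a library the Mmp13 UMIs were unevenly spread, and the 10% of mesenchymal cells with the most held 85.9%, 58.4%, 74.7% and 41.5% of them. Such a share is also larger where few UMIs are counted per cell, and it was not adjusted for this. Thinned means per cell were 0.41, 6.48, 2.57 and 9.82 UMIs for Mmp13. They were 4.47, 20.6, 9.88 and 25.9 for Mmp10 and 6.65, 4.08, 7.02 and 6.06 for Timp2. For Mmp10 the share held by the top 10% was 40.4%, 22.5%, 29.3% and 21.0%, and for Timp2 20.6%, 23.8%, 22.2% and 25.2%. The Mmp10 share was thus above that of Timp2 in the untreated libraries only. The median thinned cell held 6, 44, 39 and 90 Mmp3 UMIs, of 5000.

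Mmp3 and Mmp10 were near ubiquitous among mesenchymal cells. Thinned, Mmp3 was found in 80.3%, 94.3%, 100% and 99.2% of them and Mmp10 in 70.6%, 99.7%, 84.9% and 100%, whereas Mmp9 was found in 3.32%, 15.4%, 10.5% and 22.5%. Unthinned, Mmp9 was found in 12.2%, 50.0%, 28.9% and 56.6%. In 32 of the 40 member-by-library shares the mesenchymal interval lay above the epithelial one, and in 5 it lay below. Epithelial and mesenchymal cells differed in depth before thinning, and thinning left out 405 cells in all.

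**Figure D3:**
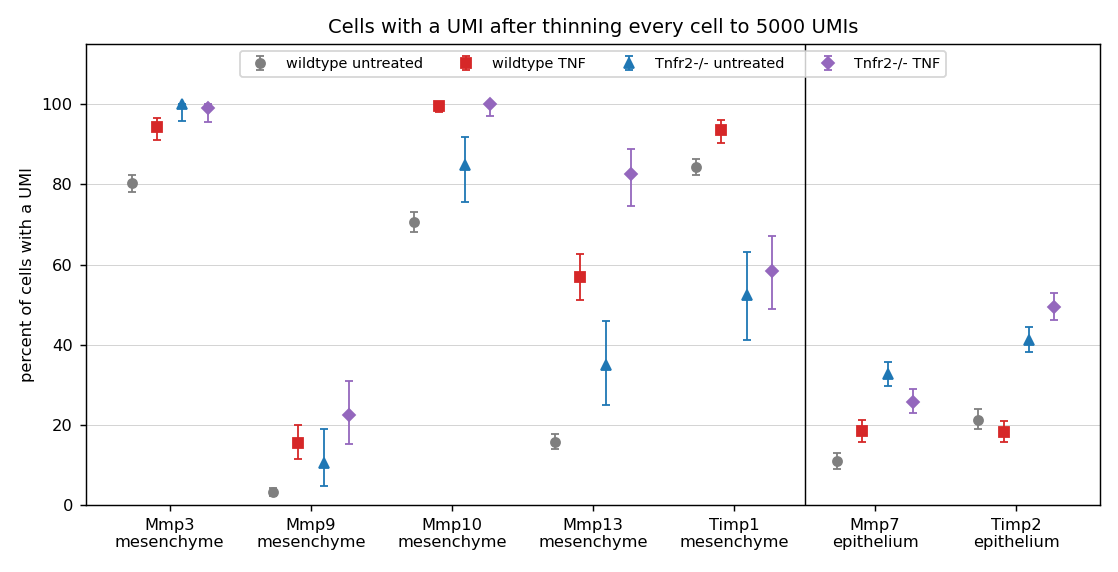
Percent of cells with a UMI (vertical) after each cell was thinned to 5000 UMIs, for 5 members in the mesenchyme and 2 in the epithelium, with 95% Clopper-Pearson intervals, in the 4 libraries. Mmp13 went from 15.8% of untreated wildtype to 82.5% of Tnfr2-/- TNF mesenchymal cells, and Timp1 was found in 84.4% and 93.6% of wildtype but 52.3% and 58.3% of Tnfr2-/- cells.

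In TNF-treated Mesenchyme-Ptges cells the 3 clustered MMPs were correlated with each other across cells. The Spearman correlation across thinned cells was 0.49 (296 wildtype cells) and 0.52 (120 Tnfr2-/- cells) between Mmp3 and Mmp10, 0.44 and 0.40 between Mmp10 and Mmp13, and 0.28 and 0.35 between Mmp3 and Mmp13. Mmp10 with Timp1 gave 0.10 and -0.01. Mmp14, which is outside the cluster, gave 0.25 and 0.20 with Mmp3, 0.15 and 0.18 with Mmp10, and 0.25 and 0.12 with Mmp13. Positive values were thus not particular to the cluster, and in wildtype those of Mmp14 came near that of Mmp3 with Mmp13. In the 34 untreated Tnfr2-/- cells of this class Mmp3 and Mmp10 gave -0.04, Mmp10 and Mmp13 0.51 and Mmp3 and Mmp13 -0.16. In the Mesenchyme-Ifitm1 cells of the untreated wildtype library, Mmp3 and Mmp10 gave -0.03 (890 cells). Cells of a library share their culture and preparation, so these values are descriptions.

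Mmp7 (matrilysin), which processes cell surface proteins and activates defensins in Paneth cells of the small intestine, was the epithelial member. It stood at 50.8, 232, 188 and 153 CPM in the epithelium, with the untreated wildtype library below the other 3. In the mesenchyme it had 14, 23, 6 and 49 UMIs, or 0.402 to 10.3 CPM. That was 0.791%, 0.675%, 1.47% and 6.69% of its epithelial level. The same percentages for 5 epithelial markers (Epcam, Krt8, Krt18, Krt19, Cdh1) spanned 0.982% to 8.79%, 0.423% to 10.7%, 0.724% to 2.19% and 4.06% to 10.3%. Mesenchymal Mmp7 was thus below this range in untreated wildtype and within it in the other 3 libraries. Of these 5, only Krt18 lay above Mmp7 in both TNF libraries, and the next stood at 0.550% (Epcam, wildtype) and 5.47% (Krt8, Tnfr2-/-). Of the other epithelial markers, Vil1 stood at 0.571% in wildtype TNF and at 6.76%, above Mmp7, in Tnfr2-/- TNF. Cldn7 stood at 0.512% and 4.51%. Whether mesenchymal Mmp7 is background was not tested. Thinned, Mmp7 was found in 11.0%, 18.4%, 32.7% and 25.9% of epithelial cells and in 0.141% to 3.33% of mesenchymal cells, and unthinned in 22.7%, 46.5%, 61.0% and 51.9% of epithelial cells.

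The level of Mmp7 was highest in secretory cells. In Secretory-Reg4-Spdef-Lyz1 cells it stood at 332, 1094 and 937 CPM in the 3 libraries with at least 20 such cells, and the 8 cells of the Tnfr2-/- TNF library gave 396 CPM. That class held 36.9%, 73.7%, 23.6% and 1.74% of epithelial Mmp7 UMIs, with 5.64%, 15.6%, 4.72% and 0.673% of all epithelial UMIs. Most other Mmp7 UMIs were in the larger progenitor classes. Progenitor.1 held 58.5%, 9.67%, 64.0% and 23.1% of them, and Progenitor.2 held 74.6% in the Tnfr2-/- TNF library. The highest level of any class, 1391 CPM, was in the 246 Secretory-Reg4-Ang4 cells found in the wildtype TNF library alone, whose median was 1958 UMIs a cell. Of 19 epithelial class-by-library sums of at least 20 cells, 17 lay above all 8 mesenchymal ones for Mmp7.

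The Mmp7 differences took opposite signs between pairs in the whole epithelium, whereas the genotype difference had 1 sign within each of 2 progenitor classes. The difference with TNF was 2.17 in wildtype and -0.29 in Tnfr2-/-, and the genotype difference 1.86 untreated and -0.59 with TNF. In Progenitor.1 cells Mmp7 stood at 54.2, 50.8, 166 and 275 CPM, so that both Tnfr2-/- libraries were above both wildtype libraries (differences 1.59 and 2.42). The TNF differences there were -0.093 and 0.73, again of opposite sign. In Progenitor.2 cells it stood at 4.76, 56.4, 112 and 135 CPM, with genotype differences of 4.29 and 1.24, the first from 8 UMIs in 62 untreated wildtype cells, and TNF differences of 3.31 and 0.27. Held to 1 progenitor class, Mmp7 was at least 2-fold higher in Tnfr2-/- in both pairs, as were 0.367% of 5720 genes in Progenitor.1 and 1.1% of 5456 genes in Progenitor.2, while the sum over all classes was lower with TNF, in a library with 8 Secretory-Reg4-Spdef-Lyz1 cells against 111 in wildtype. Within that secretory class too, by the levels given above, Mmp7 was higher in Tnfr2-/- untreated and lower with TNF, the latter from those 8 cells.

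Timp2 was the other member above 20 CPM in the epithelium. It stood at 142, 88.7, 253 and 350 CPM, with genotype differences of 0.83 and 1.97 and TNF differences of -0.67 and 0.47. Its epithelial level was 10.9%, 10.6%, 18.1% and 30.7% of the mesenchymal level, far over the mesenchymal markers below. Most came from progenitors. In Progenitor.2 cells it stood at 946, 185, 704 and 395 CPM and in Progenitor.1 cells at 175, 50.3, 151 and 105 CPM. In both classes both TNF libraries were below both untreated ones (differences -2.35 and -0.83 in Progenitor.2, -1.78 and -0.52 in Progenitor.1), whereas the sum over the Tnfr2-/- epithelium was higher with TNF, where Progenitor.2 made up 84.8% of epithelial UMIs against 19.6% without. The genotype differences of Timp2 were -0.21 untreated and 1.05 with TNF in Progenitor.1, and -0.43 and 1.09 in Progenitor.2, so the untreated ones had the opposite sign to the whole epithelium.

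Of the 10 members, 2 (Mmp7 and Timp2) reached 20 CPM in the epithelium, and neither met the 2-fold rule in both pairs. For genotype, 1.13% of 5663 genes were higher and 1.41% lower by the rule. For TNF, 0.92% of 5545 genes were higher and 0.0721% lower.

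**Figure D4:**
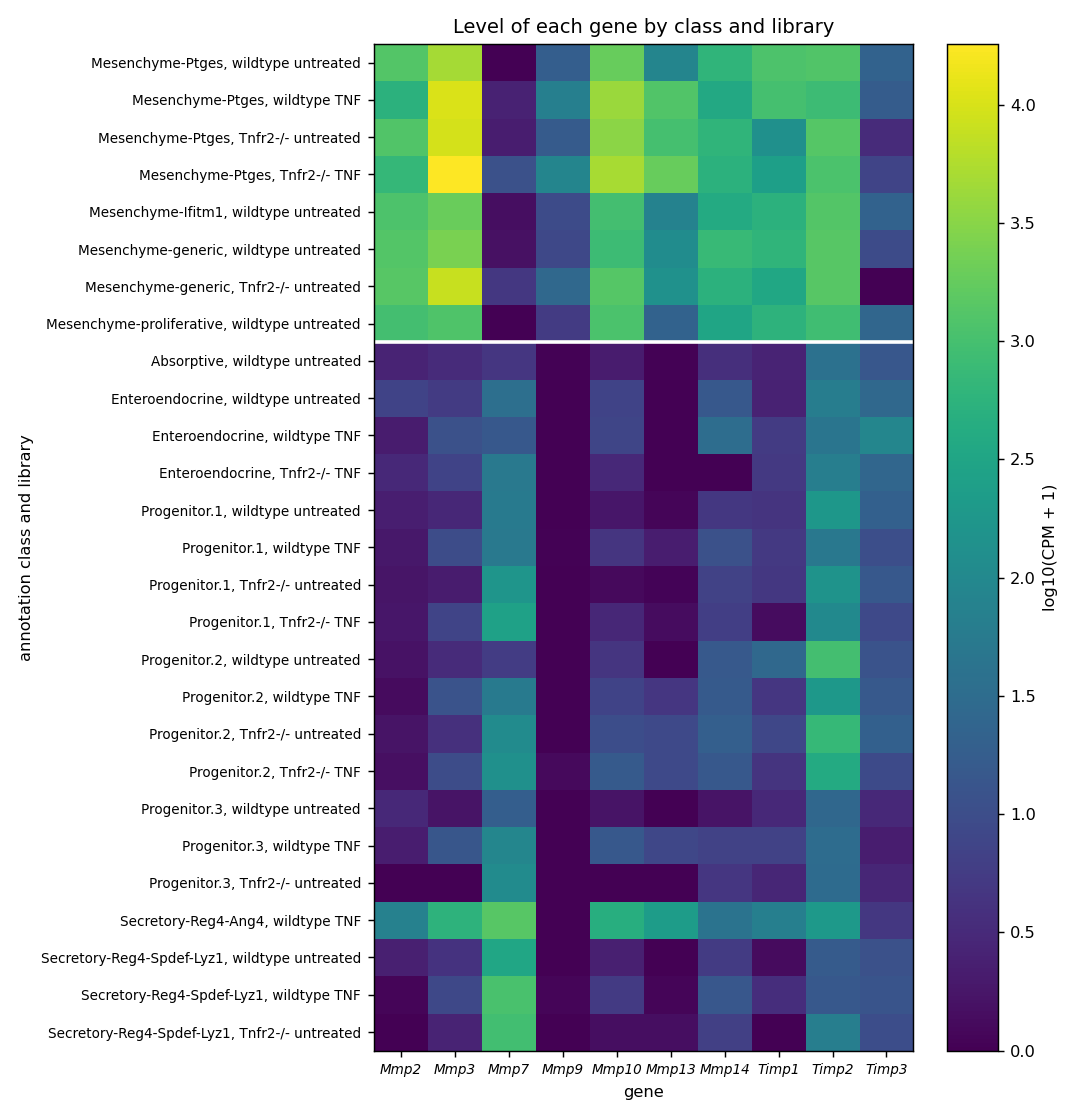
Level of the 10 genes, as log10(CPM + 1) by colour, in the 27 class-by-library sums of at least 20 cells, 8 mesenchymal above the white line and 19 epithelial below it. Mmp3 spans 1233 to 18027 CPM above the line, Mmp7 is bright in the secretory classes, and the Secretory-Reg4-Ang4 row holds Mmp3 at 555 CPM and Mmp10 at 471 CPM.

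In order of level across the 27 sums, all 8 mesenchymal sums stood above all 19 epithelial ones for Mmp2, Mmp3, Mmp9, Mmp10, Mmp14 and Timp1. For Timp2 it was 6 of 8 and for Mmp13 3 of 8. Timp3 had no such order, and its highest sum was in Enteroendocrine cells of the wildtype TNF library at 87.4 CPM (76 UMIs in 31 cells). The highest epithelial sum for Mmp2, Mmp3, Mmp10, Mmp13, Mmp14 and Timp1 was Secretory-Reg4-Ang4, at 72.6, 555, 471, 228, 41.2 and 68.7 CPM. In the same shallow cells the 5 mesenchymal markers Col1a1, Col1a2, Col3a1, Dcn and Pdgfra stood at 6.37% to 18.3% of their mesenchymal level, and the 6 members at 5.42% to 18.2%, so members and markers stood at like percentages there.

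Low epithelial counts of mesenchymal MMPs were set against those 5 markers, since free RNA can give UMIs in any droplet. Epithelial levels of the markers were 0.0639% to 0.0870%, 0.136% to 0.308%, 0.0122% to 0.0507% and 0.0512% to 0.142% of their mesenchymal levels. Mmp3 stood at 0.107%, 0.160%, 0.0169% and 0.0470%, and Mmp2 at 0.126%, 0.276%, 0.0496% and 0.0798%. Both were within or below these ranges except in the untreated wildtype library, where both lay above the highest of the 5. Of the remaining mesenchymal markers there, Vim stood at 0.218%, above both members, Lum at 0.105% and Acta2 at 0.0902%, and Thy1 had no epithelial UMI. Without the Secretory-Reg4-Ang4 cells, the 5 markers stood at 0.0320% to 0.0876% in wildtype TNF, below Mmp3 (0.0940%), Mmp2 (0.110%), Mmp10 (0.125%) and Mmp13 (0.162%). Of the remaining mesenchymal markers, Vim (0.187%) and Acta2 (0.267%) were above all of these members, Lum stood at 0.113% and Thy1 had no epithelial UMI. The epithelial counts of Mmp2 and Mmp3 are thus near those of the markers, and whether they are free RNA was not tested. Mmp14 stood at 0.832%, 3.46%, 1.44% and 2.30%, and Timp1 at 0.605%, 0.467%, 1.54% and 1.18%. Both were above the range of the 5 markers in all 4 libraries, as was Timp2. In wildtype TNF, Lum (0.631%) was above Timp1, but without the Secretory-Reg4-Ang4 cells Lum (0.113%) was below it (0.385%).

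**Figure D5:**
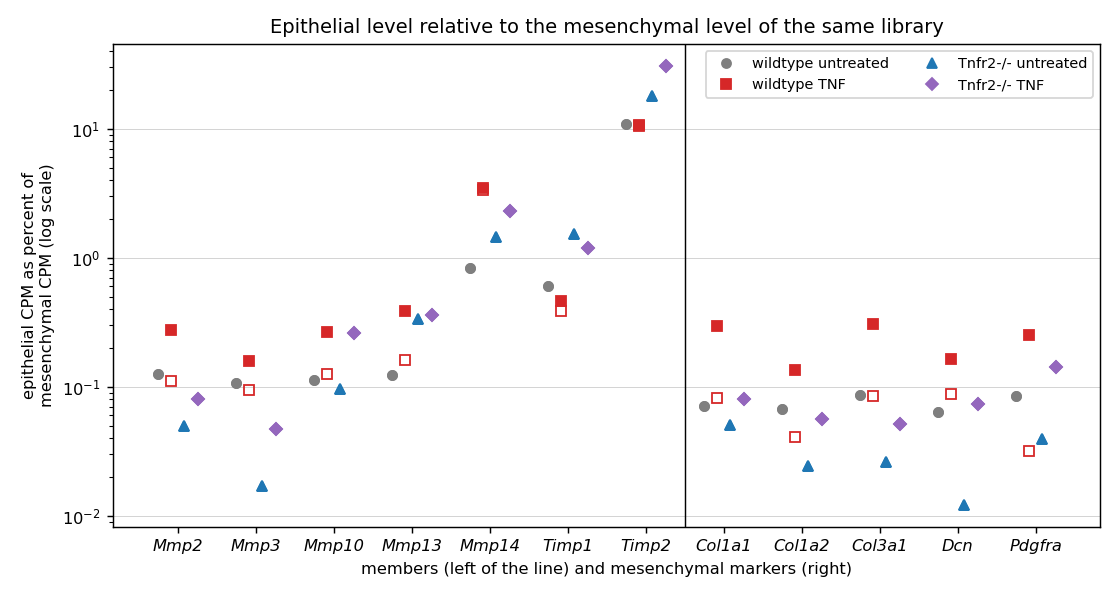
Epithelial level as a percent of the mesenchymal level of the same library (vertical, log scale) for 7 members and, right of the line, 5 mesenchymal markers. Open symbols leave out the Secretory-Reg4-Ang4 cells. This lowers the wildtype TNF range of these 5 markers from 0.136% to 0.308% to 0.0320% to 0.0876%, below the open symbols of the members. Vim (0.187%) and Acta2 (0.267%), which are not shown, lay above the open symbols of Mmp2, Mmp3, Mmp10 and Mmp13 in that library. Mmp3 lies between 0.0169% and 0.160%, and Timp2 lies between 10.6% and 30.7%.

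Mmp10 stood at 0.113%, 0.266%, 0.0955% and 0.262% and Mmp13 at 0.125%, 0.384%, 0.335% and 0.361%. Both were above the range of the 5 markers in each library except Mmp10 in wildtype TNF. There Mmp10 was above it once the Secretory-Reg4-Ang4 cells were left out. Other mesenchymal markers lay higher in the wildtype libraries. Untreated, Vim (0.218%) was above both members. With TNF, Lum (0.631%) was above both, as were Vim (0.187%) and Acta2 (0.267%) without the Secretory-Reg4-Ang4 cells. In the Tnfr2-/- libraries Vim, the highest of the others, stood at 0.0926% and 0.103%, below both members. A few Progenitor.2 cells carried most epithelial Mmp10 and Mmp13 UMIs of the Tnfr2-/- libraries. This class held 88.1% and 97.7% of epithelial Mmp10 UMIs and 93.8% and 99.2% of Mmp13 UMIs there, with 19.6% and 84.8% of all epithelial UMIs. Progenitor.2 cells with at least 5 UMIs of Mmp10 and Mmp13 together, a limit chosen after the values were seen, numbered 0 of 62, 4 of 273, 7 of 233 and 34 of 716. In the Tnfr2-/- TNF library these 34 cells held 394 of the class's 505 Mmp10 UMIs and 189 of its 259 Mmp13 UMIs. Single cells weighed on these sums. One Progenitor.2 cell held 66 of the 80 epithelial Mmp13 UMIs of the untreated Tnfr2-/- library, and it was the one cell of its class there with at least 5. Without it, a step chosen after the values were seen, Mmp13 fell from 0.335% to 0.0587%, beside a maximum of 0.0507% for the 5 markers. Vim, outside those 5, stood at 0.0926% with that cell kept. In the Tnfr2-/- TNF library 1 cell held 82 of the 517 Mmp10 UMIs. Without that cell Mmp10 stood at 0.222%, and the 5 markers, at 0.0512% to 0.142% with it, stood at 0.0232% to 0.0572%.

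Epithelial markers were present in the chosen cells, whose Mmp10 and Mmp13 levels follow from the choice. In the 34 cells Krt8 stood at 5145 CPM and Epcam at 2535 CPM, beside 4672 and 2606 CPM in the other 682 Progenitor.2 cells, and 31 of the 34 held no UMI of any of the 5 mesenchymal markers. Of the 7 untreated Tnfr2-/- cells, 6 held no UMI of the 5 markers. Mmp3 stood at 2.81 CPM in these 7, from only 2 UMIs, and 2.83 CPM in the other 226, from 26 UMIs. In the 34 cells Mmp3 was 24.2 CPM against 7.70 CPM in the rest, Dcn was 18.5 against 1.02 CPM, and 1 of the 34 held at least 3 of the 5 markers. The cells were deep, with a median of 52204 UMIs against 37301, and the part of doublets was not tested.

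Other genes of the pathway gave context: other MMPs, regulators such as Reck and Lcn2, the plasminogen system and ADAM or ADAMTS proteinases, 45 of which were in the matrix. In the mesenchyme 21 reached the minimum for genotype, of which 4 were higher in both pairs and 0 lower, where 1.67% and 1.4% of all genes were. They were Mmp12 (macrophage elastase, also in the chromosome 9 cluster; 4.74 untreated and 3.52 with TNF), Mmp8 (neutrophil collagenase, same cluster; 1.56 and 1.09), Lcn2 (lipocalin-2, which binds Mmp9; 1.42 and 1.27) and Serpine2 (an inhibitor of serine proteinases; 1.47 and 1.12). Mmp12 stood at 0.517, 16.2, 39.5 and 196 CPM. For TNF, 20 reached the minimum and 1 was higher, Plau (urokinase; 1.91 and 1.46), with 0 lower, where 2.77% of all genes were higher and 3.51% lower. Class make-up bears on these counts too. In Mesenchyme-Ptges 2 of 23 were higher for genotype, Mmp8 (2.15 and 1.08) and Mmp12, where 3.03% of 5943 genes were, and 0 of 19 for TNF, where 1.67% were. Mmp12 had no UMI in the 34 untreated wildtype cells of that class, where 3 UMIs would be 8.76 CPM, and stood at 16.3, 102 and 196 CPM in the other 3 libraries. Lcn2 there was lower in Tnfr2-/- without TNF (-0.91) and higher with it (1.27), Serpine2 gave 0.91 and 1.11, and the TNF differences of Plau were 0.73 and 1.80. In the epithelium 1 of 9 was higher for genotype, Lcn2 (2.70 and 3.37), where 1.13% of all genes were, and 0 of 8 met the rule for TNF, where 0.92% were higher and 0.0721% lower.

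Genes with the most similar pattern were sought over the 27 sums among 10106 genes, by Pearson's r of log2(CPM + 1). The genes nearest Mmp3 were Grem1 (0.99), Mmp10 (0.99) and Fstl1 (0.98), and those nearest Mmp10 were Mmp3, Col7a1 (0.98) and Grem1 (0.98). For Mmp13 they were Ccbe1 (0.96), Mmp10 (0.95) and Tnfrsf26 (0.95), and for Mmp9 Rgs1, Gm10419 (both 0.98) and Gm26523 (0.97). Mmp2 was nearest to Col5a2 (1.00), Cdh11 and Lef1 (both 0.99), and Mmp14 to Lamb2, Slc12a4 (both 0.96) and Fkbp9 (0.95). Timp1 was nearest to Flnc (0.97), Vcam1 and Lgals1 (both 0.96), and Timp2 to Sphk1 (0.97), Tmem140 and Fbln2 (both 0.94). Mmp7 was nearest to R3hdml (0.94), AI463229 (0.93) and Tff3 (0.92), a goblet cell peptide. For Timp3 the values were lower, with Lias first at 0.76, then Tarsl2 and Eif2ak1 (both 0.72). The sums share libraries and the split into mesenchyme and epithelium sets much of these values.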

How the data were processed

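Cells from 4 colonic organoid cultures were profiled with 10x Chromium 3′ libraries, 1 per group, and took their group from the genotype and treatment given in the deposited cell table. The deposited values are whole-number UMI counts per gene and cell. The authors made them with Cell Ranger 5.0.0 on mm10, per the submitters' processing notes, removed cells under 100 UMIs in monocle3 and, per their methods, removed epithelial and mesenchymal doublets. The lowest deposited cell held 894 UMIs. Deposited classes were used as given, and no doublet caller was run. The size factor and 2 plotting coordinates were not used. Of 30360 identifiers, 30240 matched GENCODE M21.

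UMI sums of a class, or of the whole mesenchyme or epithelium, were converted to CPM per library. Differences are of log2(CPM + 1), which understates those of low genes. The rule asked for a 2-fold difference of 1 direction in each of the pairs. In both pairs, the higher library also had to reach 20 CPM. Single libraries per group allowed no test. Sums carry exact Poisson intervals, shares Clopper-Pearson intervals and ratios conditional binomial intervals, all at 95% and for counting error only. UMIs at the 3′ end were not scaled by length, so levels were compared within genes. Named genes were the 10 members, the pathway genes meeting the rule and the 3 genes most like each member. The members and the lists were chosen with earlier results of these data known. Counting was tested on simulated data. Python 3.11.15, scipy 1.17.1, pandas 2.3.3 and, for TMM factors, edgeR 4.0.16 were used. Alternatives were other pseudocounts and minimums, TMM and median-of-ratios scaling, deeper cells, removal of mixed cells, means over cells, single classes and other thinning depths.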

Additional observations from a re-analysis of the deposited data

Results flagged for a closer look

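Among members that reached 20 CPM, summed over the whole mesenchyme or the whole epithelium, 3 effects took opposite signs in the 2 pairs of a comparison, with counting intervals on either side of 0. Single classes were not searched for such pairs, and none of these differences between pairs was tested. The genotype difference of Mmp7 in the epithelium was 1.86 untreated and -0.59 with TNF, a change of -2.46. Its TNF difference was 2.17 in wildtype and -0.29 in Tnfr2-/-, a change of -2.46. The 2 Mmp7 changes are the same quantity, as both are built from the same 4 values. The TNF difference of epithelial Timp2 was -0.67 in wildtype and 0.47 in Tnfr2-/-, a change of 1.14. In the 35 cells without a class, which entered no comparison, Mmp7 stood at 59.6 CPM (exact 95% Poisson interval from 50.3) beside 30.2 CPM in the classed cells of the untreated wildtype library. That value pools 2 libraries. The 31 such cells of the untreated wildtype library gave 35.8 CPM (28.1 to 44.8), an interval that holds 30.2 CPM, and the 4 of the untreated Tnfr2-/- library gave 201 CPM (157 to 254) beside 180.0 CPM in its classed cells.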

How the results depend on the processing

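Of 880 values of member differences under the alternatives, 811 kept their sign and 69 did not. Among differences of at least 2-fold, those that reversed were the TNF difference of epithelial Mmp7 in wildtype, -0.093 in Progenitor.1 alone, and the untreated genotype difference of mesenchymal Mmp9, -0.16 in Mesenchyme-Ptges alone and, as that is the only class with enough cells, also with equal weight of classes. Among smaller differences, within single classes Timp1 with TNF went from 0.81 to -0.25 (wildtype) and from -0.12 to 0.86 (Tnfr2-/-) in Mesenchyme-Ptges, epithelial Timp2 from 0.83 to -0.43 (genotype, untreated) and from 0.47 to -0.83 (TNF, Tnfr2-/-) in Progenitor.2, and Mmp7 from -0.59 to 2.42 (genotype, with TNF) and from -0.29 to 0.73 (TNF, Tnfr2-/-) in Progenitor.1. Of the counts, 163 of 198 alternative values stayed within 1.5 times. With a pseudocount of 10 CPM, 32 genes were higher in the epithelium for genotype (64 at 1 CPM), 0 lower for TNF (4) and 36 lower in the mesenchyme for genotype (83). With no minimum, the epithelium had 204 genes higher and 261 lower for genotype and 131 higher and 9 lower for TNF, with 3 members higher. The mesenchyme then had 217 higher and 280 lower for genotype, with 1 member higher and 2 lower, and 361 higher and 416 lower for TNF. With median-of-ratios scaling 0 members were lower in the mesenchyme for genotype. With equal weight of the 2 epithelial classes, 38 genes and 1 member were higher for genotype, and 18 were higher and 25 lower for TNF. In Progenitor.1 alone, 21 genes and 1 member were higher and 37 genes lower for genotype, with 16 higher and 16 lower for TNF. In Progenitor.2 alone, 1 member was higher for genotype, where 60 of 5456 genes were higher and 99 lower, and 22 genes were higher and 27 lower for TNF. In Mesenchyme-Ptges alone, and so with equal weight, 180 genes were higher for genotype, 97 genes and 1 member higher for TNF and 81 genes lower. Counts without a minimum rose by construction, since more genes entered. For the others the cause was not tested. Scaling moved the median of all genes, at most from -0.20 to -0.01 for the mesenchymal genotype difference with TNF.

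No paired analysis was possible because each group had 1 library. Single cultures leave variation between mice and cultures unmeasured, the Mesenchyme-Ptges sums without TNF rest on 34 and 37 cells, and Mmp9 and Timp3 are limited by low counts.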

Other observations

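The 31 cells without a class in the untreated wildtype library held Timp1 at 113 CPM and Timp2 at 392 CPM, and the 4 such cells of the untreated Tnfr2-/- library held Mmp7 at 201 CPM. These cells were deep, with medians of 66566 and 88648 UMIs, and the 9 mesenchymal markers summed to 3787 and 3031 CPM in them.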
